A study of Mus musculus with 6 samples.

Results

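The endoplasmic reticulum (ER) chaperones and the unfolded protein response were examined as a group of 34 genes, each taken from the deposited table of 33182 genes by its exact gene name. The group was chosen for known function, with earlier results of these data known, and no measured value entered the choice. All 34 were found, and 33 passed the filter of a mean of at least 0.5 FPKM (fragments per kilobase of transcript, scaled to sequencing depth). RNA came from the motor cortex of SOD1G93A mice, which carry a mutant human SOD1 transgene and are a model of amyotrophic lateral sclerosis. Both groups were of this genotype and were taken at day 120: 3 libraries were controls and 3 had received the treatment labelled ultrasound, low-intensity pulsed ultrasound by the title of the series. The ultrasound dose, the days of treatment and what the controls received were not stated in the labels. Nor do the labels tie each library to an animal of its own, so p-values here speak to variation among libraries, which may be technical.

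Proteins that enter the secretory pathway fold inside the ER with the help of chaperones, lectins and enzymes that form disulphide bonds. When unfolded proteins build up there, the membrane sensors IRE1 (gene Ern1), ATF6 and PERK (gene Eif2ak3) raise chaperone and degradation genes through XBP1 and ATF6, and slow translation and induce ATF4 and CHOP (gene Ddit3) through PERK. Mutant SOD1 is known as a trigger of this response in spinal motor neurons of SOD1 mice. IRE1 activates XBP1 by unconventional splicing of its mRNA, and ATF6 and PERK act after cleavage or phosphorylation. Counts per gene measure none of these steps, only the amount of each transcript.

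Many chaperone genes share a promoter element, the ER stress response element (ERSE), bound by ATF6 and XBP1 together with the factor NF-Y. In the RefSeq promoter table (GRCm38.p6), 30 of the 34 genes had an entry. Atf6, Derl1, Hyou1 and Manf did not. The element was searched as CCAAT and CCACG with 9 bases between them, on both strands, in the 250 bases upstream of each start. It was present in 9 of the 30 genes (Calr, Canx, Creld2, Dnajc3, Ero1b, Hsp90b1, Hspa5, Pdia6 and Syvn1), against 0.130% of the 27025 genes in the table. Of these 9, 8 belonged to the chaperones and folding enzymes. In the same branch, the entries of Dnajb9, Dnajb11, Sdf2l1, Pdia3, Pdia4 and P4hb held no exact match to the element. The windows below show it in the promoters of 5 abundant chaperones that the results return to, with the matched element in capitals, read 5′ to 3′ on the strand of the gene. In Hsp90b1, which had 2 matches, the match nearer the start is shown. In Calr and Hsp90b1 the match lay on the opposite strand, so the capitals open with CGTGG and close with ATTGG.
Hspa5: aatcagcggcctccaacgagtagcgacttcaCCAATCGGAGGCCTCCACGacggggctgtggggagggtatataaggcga
Hsp90b1: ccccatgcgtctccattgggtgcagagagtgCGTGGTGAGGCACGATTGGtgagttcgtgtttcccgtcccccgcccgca
Calr: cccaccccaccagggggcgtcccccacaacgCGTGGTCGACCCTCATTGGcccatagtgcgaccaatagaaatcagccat
Canx: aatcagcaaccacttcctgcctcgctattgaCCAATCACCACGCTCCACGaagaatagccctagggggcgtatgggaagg
Pdia6: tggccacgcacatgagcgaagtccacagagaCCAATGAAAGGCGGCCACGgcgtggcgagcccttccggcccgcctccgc
Each window holds 80 bases. On GRCm38.p6 they lie at chr2:34771994-34772073 on the plus strand for Hspa5, chr10:86705503-86705582 on the minus strand for Hsp90b1, chr8:84847045-84847124 on the minus strand for Calr, chr11:50325770-50325849 on the minus strand for Canx and chr12:17266460-17266539 on the plus strand for Pdia6.

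Other elements of the response were rarer among the members. The related ERSE-II, searched as ATTGG and CCACG with 1 base between, was found in Herpud1 alone among the 30, and in 0.0370% of all genes in the table. The core of the unfolded protein response element, TGACGTG, was found in Hspa5, and in 1.85% of all genes. The amino acid response element TTGCATCA, which ATF4 binds, was found in Atf3, Chac1 and Herpud1, and in 0.918% of all genes. None of these matches overlapped another in the same promoter. A match is a string of letters and not a measured site of binding.

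The libraries held 38202541 to 60088636 counts. Levels in a library are given below as CPM, the counts brought to one common library size with the TMM factors of edgeR, and log2 fold changes are ultrasound minus control. The 18S ribosomal RNA gene took 4.68% of the counts in control 3 and 9.18% in ultrasound 2, and between 0.561% and 1.67% in the other 4 libraries. The 6 markers of cortical excitatory neurons, which bear on the tissue label, were all detected, and their sum ran from 486 to 619 FPKM in controls and from 612 to 633 FPKM after ultrasound. Control 3, the lowest for these markers, also held olfactory bulb markers at a sum of 73.2 FPKM, where no other library exceeded 3.32 FPKM. Choroid plexus markers had a sum of at most 7.65 FPKM among controls, against 9.07, 13.8 and 242 FPKM in ultrasound 1 to 3. These sums separated through Ttr, at 1.63 to 3.88 FPKM in controls and at 7.08, 12.7 and 235 FPKM in ultrasound 1 to 3. Without Ttr the sums overlapped, and Folr1, Kcne2 and Slc4a5 were at 0 in at least 1 library. Summed levels of the other 8 marker lists (inhibitory neurons, astrocytes, oligodendrocytes and their precursors, microglia, endothelium, striatum and neutrophils) overlapped between the groups. In bulk tissue, a lower level can come from fewer cells of a type or from less RNA per cell, and these cannot be told apart.

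In level, the lectin and chaperone genes led the group. Calr, encoding the calcium-binding lectin chaperone calreticulin, had the highest mean over the 6 libraries, 99.6 FPKM. Hsp90b1, encoding the HSP90 of the ER (GRP94), followed at 62.6 FPKM, Canx, encoding the membrane lectin calnexin, at 55.5 FPKM, and Pdia3, encoding the isomerase that works with both lectins, at 47.5 FPKM. The ranges of Canx (48.7 to 63.5 FPKM) and Hsp90b1 (53.3 to 73.6 FPKM) overlapped, as did those of Canx and Pdia3 (37.0 to 54.8 FPKM), while the lowest Calr value, 88.8 FPKM, lay above the highest of any other member. Atf4 came next at 38.7 FPKM, with a wide range of 22.4 to 58.4 FPKM that overlapped those of Hspa5 (29.2 to 51.5 FPKM) and P4hb (28.2 to 37.9 FPKM). At the other end, the sensor gene Ern1 averaged 1.59 FPKM, Atf3 0.641 FPKM and Trib3 0.223 FPKM, and Trib3 failed the filter.

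**Figure D1:**
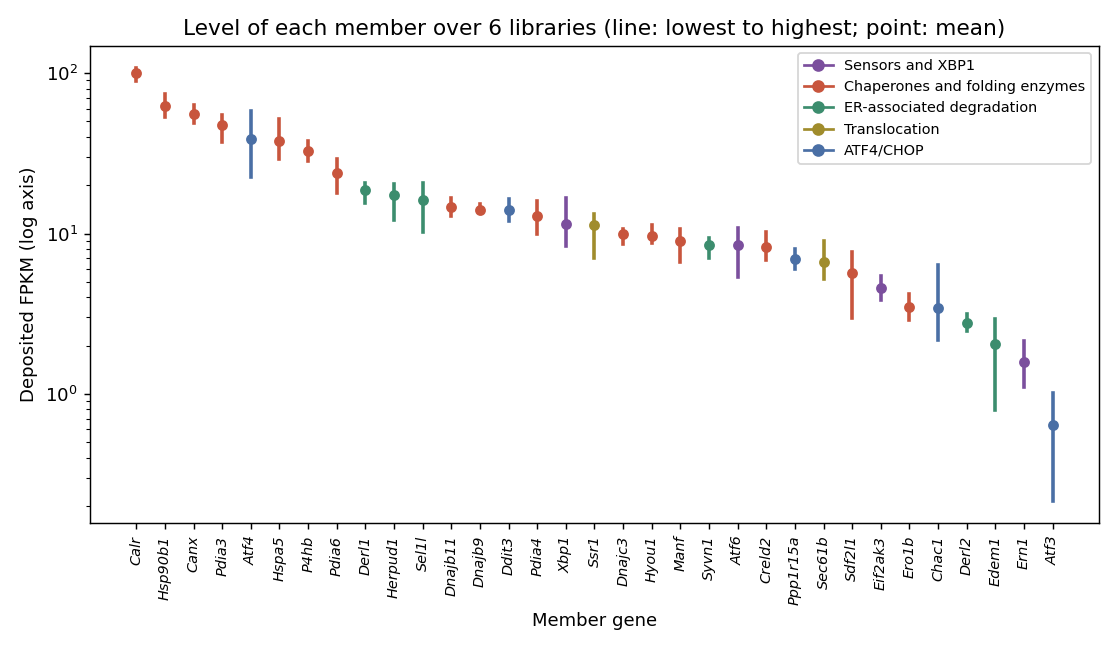
Deposited FPKM of each member on a log axis, with a point for the mean over 6 libraries and a line from the lowest to the highest library, coloured by branch. Calr is highest at 99.6 FPKM and Atf3 lowest of those drawn at 0.641 FPKM, and Trib3, at 0 in 1 library, is not drawn.

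No member passed the test between ultrasound and control. In the edgeR quasi-likelihood fit of 15740 genes, 0 of the 33 tested members had an adjusted p under 0.05, against 1 of all genes (0.00635%), and the smallest adjusted p of a member was 0.973. DESeq2 and limma also passed 0 members. An unadjusted p under 0.05 was seen for 3 members in edgeR (4.77% of all genes), for 4 in DESeq2 (5.68% of all genes with a p there) and for 2 in limma on log2(FPKM + 0.5) (4.77% of all genes). The 3 in edgeR were Ern1, which was lower with ultrasound (2.32% of all genes were called in that direction), and Pdia4 and Pdia6, which were higher (2.45% of all genes). Of the 33 members 25 were higher with ultrasound, where 48.8% of all genes were. The median log2 fold change of the 33 was 0.21, against -0.0075 for all genes tested. Atf3, among the 25, had a control mean of 0.489 FPKM, below the filter. Trib3, which failed the filter, averaged 0.303 FPKM in controls and 0.143 FPKM with ultrasound.

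**Figure D2:**
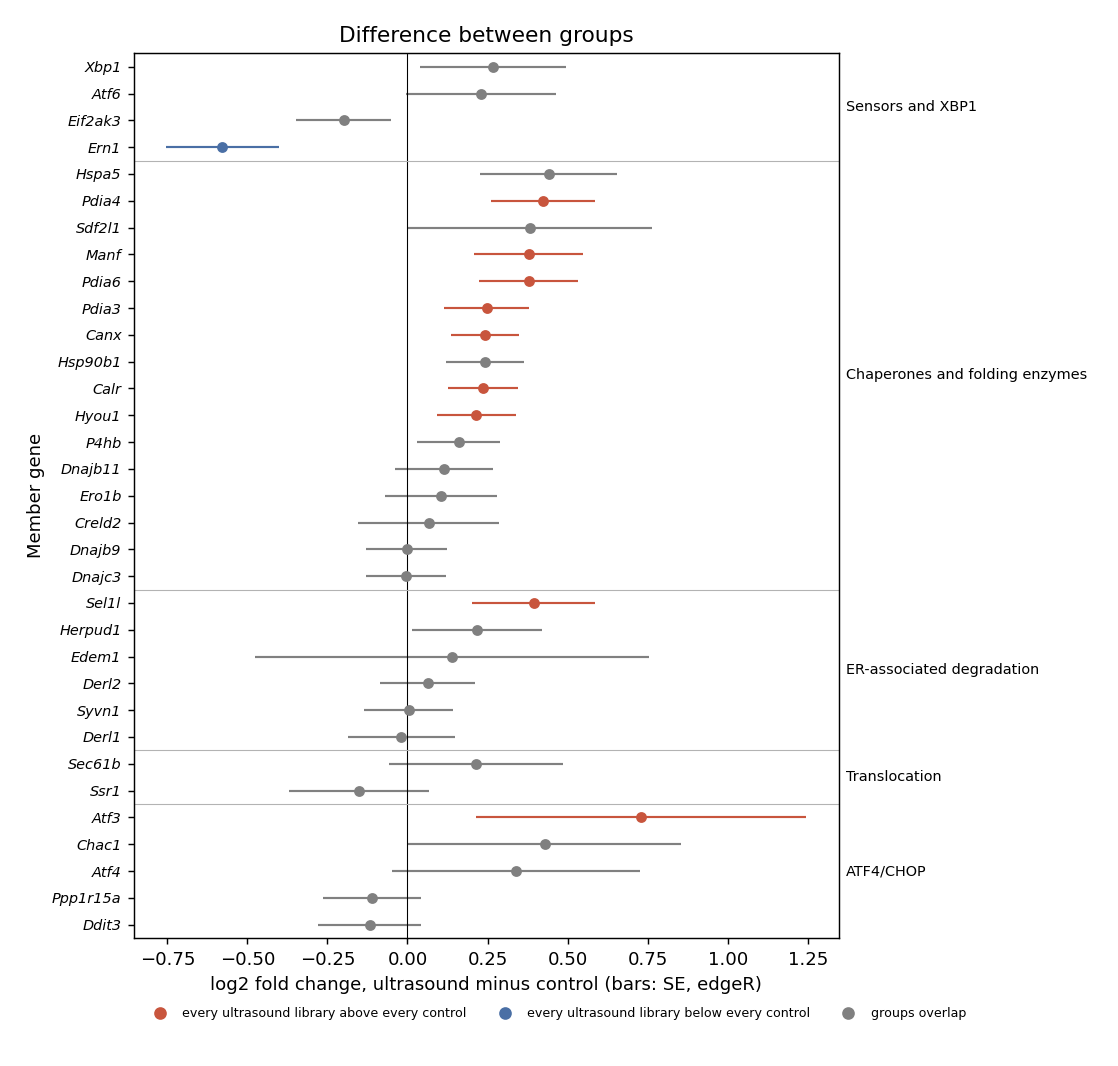
Log2 fold change of each of the 33 tested members, ultrasound minus control, with the SE of the edgeR fit as a bar, ordered by branch. Most chaperones lie between 0 and 0.44, Ern1 lies at -0.58, and colours mark the members whose groups did not overlap in CPM.

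In the branch of chaperones and folding enzymes 14 of 16 were higher with ultrasound, where 48.8% of all genes were. The median log2 fold change was 0.24. These genes were measured in the same libraries, so they are not independent observations. Hspa5, encoding BiP, the HSP70 of the ER that also holds the sensors inactive, stood at 185, 135 and 144 CPM in controls and at 210, 264 and 155 CPM in ultrasound libraries, each in the order of replicates 1, 2 and 3, as below. Ultrasound 1 and 2 lay above all controls, while ultrasound 3 lay below control 1, so the groups overlapped. Its log2 fold change of 0.44 (SE 0.21) had an edgeR adjusted p of 0.973. Hsp90b1 stood at 258, 282 and 242 CPM in controls and at 327, 279 and 319 CPM in ultrasound libraries, where ultrasound 2 lay just below control 2. Its log2 fold change was 0.24 (SE 0.12).

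Both lectins of the calnexin cycle, which retains glycoproteins until they have folded, had narrow groups that did not overlap in CPM. Of all genes tested, 5.69% separated upward. With library size alone the Canx groups overlapped, while those of Calr did not. Calr had 288, 304 and 303 CPM in controls and 328, 375 and 349 CPM in ultrasound libraries. Canx had 257, 276 and 276 CPM in controls and 313, 310 and 334 CPM in ultrasound libraries. The differences were small, with log2 fold changes of 0.24 (SE 0.11) for Calr and 0.24 (SE 0.11) for Canx and an edgeR adjusted p of 0.973 for each. Their partner Pdia3 had 160, 171 and 131 CPM in controls and 190, 179 and 181 CPM in ultrasound libraries, a log2 fold change of 0.25 (SE 0.13). With library size alone, and in the deposited FPKM, the Pdia3 groups overlapped.

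Among the protein disulphide isomerases, Pdia4 and Pdia6 had the smallest p-values of the branch. Pdia4 (chromosome 6, 47773075 to 47790364, minus strand as the table lists it) stood at 26.7, 35.4 and 27.0 CPM in controls and at 42.0, 38.6 and 39.1 CPM in ultrasound libraries. Each ultrasound library lay above each control in CPM, with control 2 the closest. With library size alone, and in the deposited FPKM, the Pdia4 groups overlapped. The unadjusted p of Pdia4 was under 0.05 in 10 of the 17 alternative settings. The mean was 29.7 ± 4.94 CPM in controls and 39.9 ± 1.82 CPM with ultrasound (SD, n = 3). This is a log2 difference of 0.42 (SE 0.16; unadjusted p = 0.0308, adjusted p = 0.973 in edgeR). Pdia6 (chromosome 12, 17316546 to 17334771, plus strand) stood at 90.0, 98.0 and 75.9 CPM in controls and at 101, 132 and 110 CPM in ultrasound libraries, again without overlap. Its log2 fold change was 0.38 (SE 0.15; unadjusted p = 0.0405, adjusted p = 0.973 in edgeR), and it was 0.16 (unadjusted p = 0.294) without both control 3 and ultrasound 2. For P4hb, encoding the founding member of this enzyme family, the log2 fold change was 0.16 (SE 0.13). For Ero1b, encoding an oxidase that recharges these enzymes, it was 0.10 (SE 0.18).

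Co-chaperones and secreted factors were less uniform. Manf, encoding a secreted neurotrophic factor that binds BiP, had 26.3, 35.7 and 31.4 CPM in controls and 39.4, 45.8 and 36.2 CPM in ultrasound libraries, with ultrasound 3 barely above control 2. Its log2 fold change was 0.38 (SE 0.17), and with library size alone and in the deposited FPKM the groups overlapped. Hyou1, encoding the nucleotide exchange factor GRP170, had 73.2, 69.2 and 76.0 CPM in controls and 77.3, 83.9 and 92.2 CPM in ultrasound libraries, a log2 fold change of 0.21 (SE 0.12). Sdf2l1, encoding a partner of the co-chaperone ERdj3, ranged from 3.68 CPM in control 1 to 9.39 CPM in ultrasound 1 with overlap, and its difference of 0.38 on the log2 scale was as large as its SE of 0.38. Dnajb9 and Dnajc3, encoding the BiP co-chaperones ERdj4 and P58IPK, were nearly level, with log2 fold changes of -0.0025 (SE 0.13) and -0.0044 (SE 0.12) whose signs turned in DESeq2. Dnajb9, a known target of XBP1, also varied least relative to its level, from 38.8 to 42.4 CPM. For Dnajb11, encoding ERdj3, the log2 fold change was 0.11 (SE 0.15). For Creld2, encoding a chaperone-like secreted protein, it was 0.07 (SE 0.22).

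In 7 of the 16 chaperones and folding enzymes (Hyou1, Manf, Calr, Canx, Pdia3, Pdia4 and Pdia6) every ultrasound library lay above every control, as was true for 5.69% of all genes tested. This count depended on the scaling of the libraries: it was 3 of 16 (Hyou1, Calr and Pdia6) with library size alone, where 3.32% of all genes separated upward, and 4 of 16 in the deposited FPKM (those 3 and Canx), where 3.70% did. The branch median held more evenly, between 0.19 and 0.26 over all 17 alternative settings, with 13 to 16 of the 16 higher. It was 0.23 without control 3, the library with olfactory bulb transcripts, 0.23 without ultrasound 3, the library richest in choroid plexus markers, and 0.19 without both control 3 and ultrasound 2, the libraries richest in 18S. Several marker lists were higher with ultrasound alongside the chaperones. Of the striatal markers 6 of 6 were higher (median log2 fold change 0.47), of the oligodendrocyte precursor markers 6 of 6 (0.35), and of the oligodendrocyte markers 5 of 6 (0.17). Of the microglia and excitatory neuron markers 4 of 6 each were higher (0.12 for both). Of the tested choroid plexus markers 3 of 3 were higher (1.19), but this rested largely on ultrasound 3. Kl, which gave that median, passed the filter through ultrasound 3 (2.04 FPKM), with at most 0.627 FPKM in any other library. For Clic6 the log2 fold change was 0.16 (SE 1.11). Summed excitatory markers overlapped between groups only through control 1. Astrocyte and endothelial markers had 3 of 6 higher, inhibitory neuron markers 2 of 6, and olfactory bulb and neutrophil markers 0 of 6 and 0 of 4 tested. Omp, Eomes, Tbx21 and Th passed the filter through control 3 alone. Retnlg, at 0 FPKM in every ultrasound library, and Mmp9 passed it through the controls. Ngp and Camp failed it. Ngp ran from 0.221 to 0.578 FPKM in controls and from 0 to 0.784 FPKM with ultrasound. Camp was at most 0.120 FPKM in controls and reached 0.487 FPKM with ultrasound. The part of these cells in the result was not tested. Of the ERSE-bearing members 8 of 9 were higher, with a median of 0.24, against 14 of 20 and a median of 0.19 for the tested members whose promoter entry lacked the element. Chaperones and folding enzymes made up 8 of the 9, so the element and the branch cannot be told apart here.

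**Figure D3:**
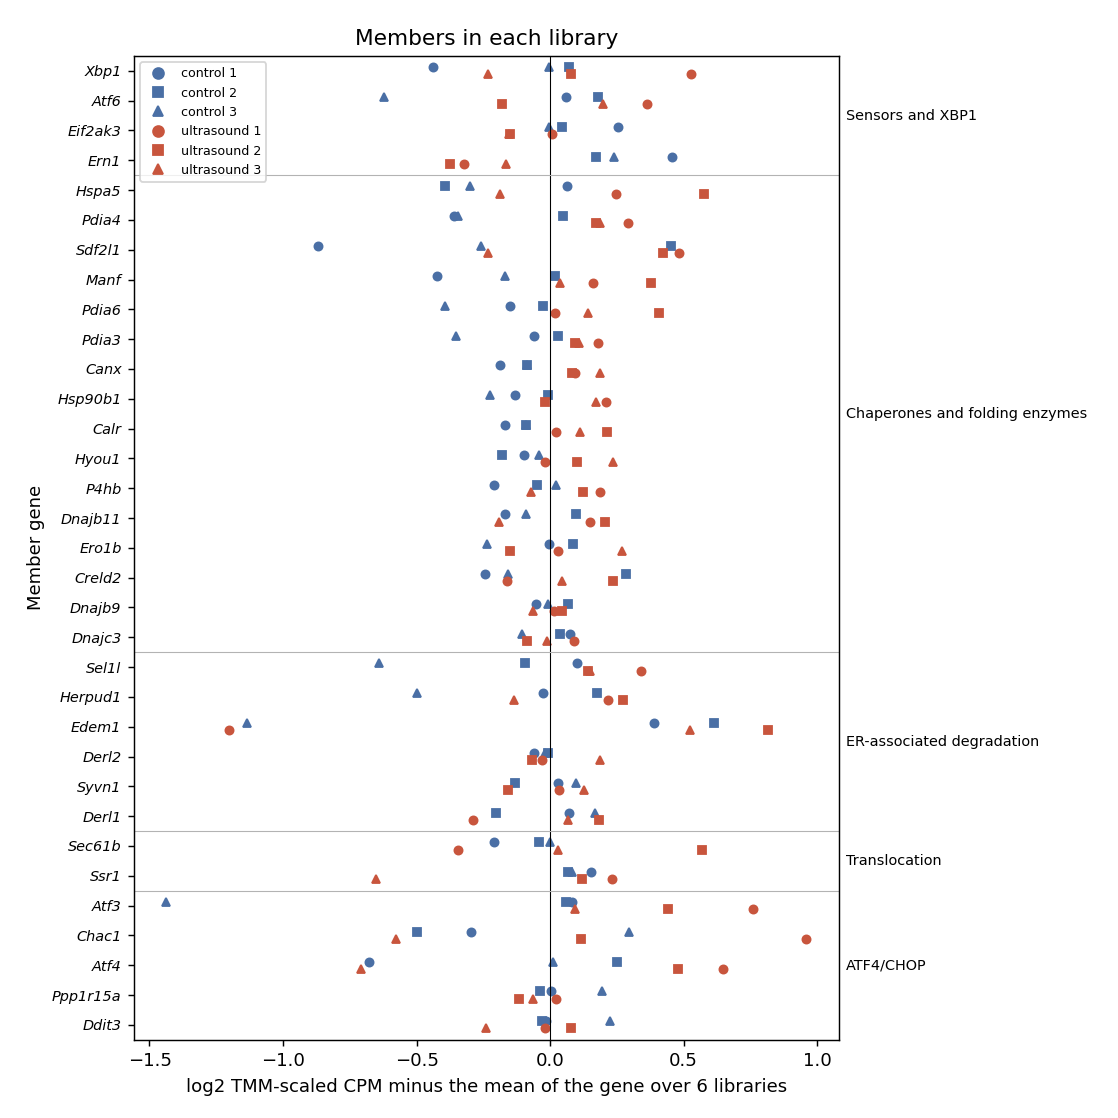
Log2 CPM of each tested member in each library minus its mean over the 6 libraries, with controls in blue, ultrasound in red and a marker shape per replicate number. The chaperone block shifts to the right in ultrasound libraries, while Edem1, Atf4, Atf3 and Chac1 spread widely within both groups.

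The sensors did not share one direction. Ern1, encoding the kinase and endonuclease IRE1 alpha (chromosome 11, 106285476 to 106378678, minus strand as the table lists it), stood at 19.6, 16.1 and 16.9 CPM in controls and at 11.4, 11.0 and 12.8 CPM in ultrasound libraries. Every ultrasound library lay below every control, as for 5.66% of all genes, and this held with library size alone and in the deposited FPKM too, where 7.73% and 7.08% of all genes separated downward. The means were 17.5 ± 1.85 CPM and 11.7 ± 0.909 CPM (SD, n = 3). This is a log2 difference of -0.58 (SE 0.18; unadjusted p = 0.0112, adjusted p = 0.973 in edgeR). Its unadjusted p stayed between 0.0053 and 0.0469 over the 17 alternatives, and its adjusted p between 0.425 and 0.998.

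Xbp1, the transcription factor that IRE1 activates, had 30.4, 43.2 and 41.0 CPM in controls and 59.4, 43.4 and 35.1 CPM in ultrasound libraries. Ultrasound 1 was the highest and control 1 the lowest, the other 4 libraries were interleaved, and the log2 fold change was 0.27 (SE 0.23). Eif2ak3, encoding PERK, had 37.1, 32.0 and 30.9 CPM in controls and 31.2, 28.0 and 27.9 CPM in ultrasound libraries, a log2 fold change of -0.20 (SE 0.15). Ultrasound 1 lay above control 3, so the groups overlapped. Atf6 had 89.6, 97.3 and 55.8 CPM in controls and 111, 75.7 and 98.5 CPM in ultrasound libraries, with control 3 the lowest and a log2 fold change of 0.23 (SE 0.23). Over the sensors Ern1, Eif2ak3 and Atf6 together with Xbp1, the median was 0.015, and it was -0.03 with library size alone. Of the sensors, Ern1 and Eif2ak3 were lower and Atf6 was higher, and Xbp1 was higher too.

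ER-associated degradation, which returns misfolded proteins to the cytosol for the proteasome, had 5 of 6 members higher and a median log2 fold change of 0.10. Sel1l, encoding the adaptor that holds the ubiquitin ligase complex together, had 165, 144 and 98.9 CPM in controls and 195, 170 and 171 CPM in ultrasound libraries. The groups did not overlap in CPM, control 3 was far below the rest, and the log2 fold change reached 0.39 (SE 0.19; edgeR adjusted p = 0.973). With library size alone, and in the deposited FPKM, the Sel1l groups overlapped. Syvn1, encoding HRD1, the ligase of the same complex, had a difference whose sign turned with the scaling, with 47.5, 42.5 and 49.9 CPM in controls and 47.7, 41.8 and 50.9 CPM in ultrasound libraries. Herpud1, encoding a stress-induced scaffold of that complex, had 44.3, 50.9 and 31.9 CPM in controls and 52.4, 54.5 and 41.1 CPM in ultrasound libraries, a log2 fold change of 0.22 (SE 0.20). The derlins, membrane proteins of the retrotranslocation channel, had log2 fold changes of -0.02 (SE 0.17) for Derl1 and 0.06 (SE 0.15) for Derl2. Derl2 ranged from 23.9 to 28.5 CPM.

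Edem1, encoding a mannosidase-like protein that marks glycoproteins for disposal, differed most between libraries of one group. It had 17.1, 20.0 and 5.96 CPM in controls and 5.69, 23.1 and 18.8 CPM in ultrasound libraries. Control 3 and ultrasound 1, at 226 and 254 counts, were far below the other 4 libraries, which held 804 to 1250 counts. The low pair split across the groups, so the log2 fold change of 0.14 had an SE of 0.62, and it was -0.61 without both control 3 and ultrasound 2.

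Of the members of the translocation machinery, which passes new chains into the ER, Sec61b had the higher ultrasound mean and Ssr1 the lower. Sec61b, encoding a small subunit of the channel, had 8.11, 9.11 and 9.36 CPM in controls and 7.37, 13.9 and 9.56 CPM in ultrasound libraries, a log2 fold change of 0.21 (SE 0.27) that rested on ultrasound 2, since it was -0.07 without that library. Ssr1, encoding a subunit of the associated TRAP complex, had 144, 136 and 137 CPM in controls and 152, 141 and 82.7 CPM in ultrasound libraries. Ultrasound 3 alone was low, and the log2 fold change of -0.15 (SE 0.22) was 0.08 without it.

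**Figure D4:**
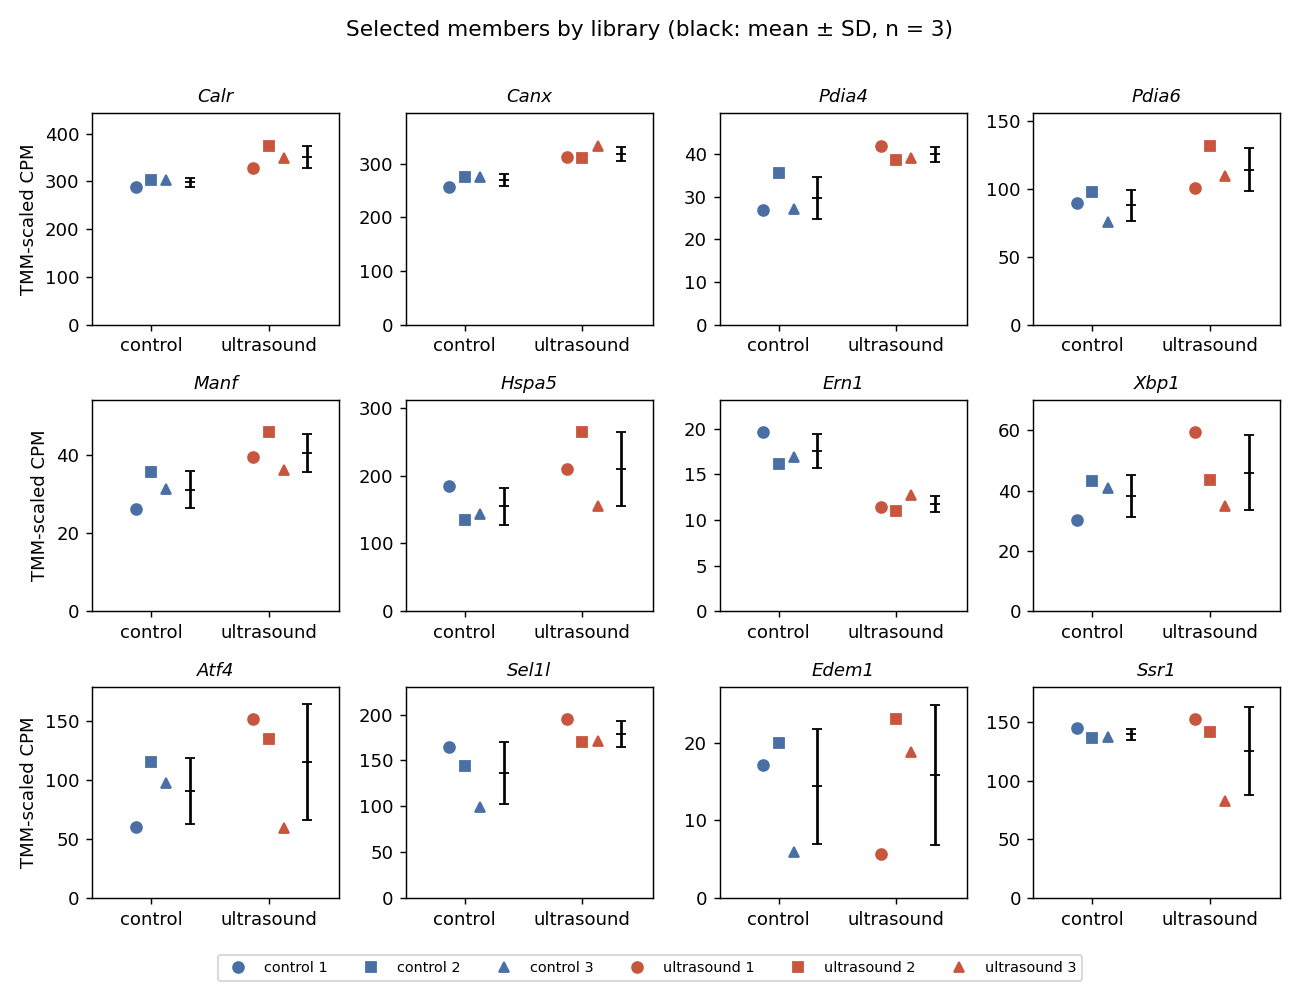
CPM by library for 12 members, 1 panel each with an axis from 0, and the mean ± SD (n = 3) in black beside each group. Calr, Canx, Pdia4, Pdia6, Manf and Sel1l are higher in every ultrasound library (5.69% of all genes) and Ern1 lower (5.66%). With library size alone, only Calr, Pdia6 and Ern1 of these stay separate. Single libraries set the spread of Edem1, Atf4 and Ssr1.

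The ATF4/CHOP branch, in which PERK induces stress and cell death genes, showed no shared direction. Atf4, its central transcription factor, had 60.6, 115 and 97.7 CPM in controls and 152, 135 and 59.2 CPM in ultrasound libraries. Control 1 and ultrasound 3 were low together, all control values lay within the ultrasound range, and the log2 fold change was 0.34 (SE 0.39). Atf4 is also induced by other stresses through the same phosphorylation of eIF2 alpha. Ddit3, encoding the pro-apoptotic factor CHOP, had 26.9, 26.6 and 31.7 CPM in controls and 26.8, 28.7 and 23.0 CPM in ultrasound libraries, a log2 fold change of -0.12 (SE 0.16). A second entry named Ddit3, which overlaps the first in the table, held 1 count in every library, so the division of reads between both is uncertain. Ppp1r15a, encoding the phosphatase subunit GADD34 that ends the translation block, had 23.1, 22.5 and 26.4 CPM in controls and 23.4, 21.3 and 22.1 CPM in ultrasound libraries, a log2 fold change of -0.11 (SE 0.15).

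Its low-abundance members were the least certain. Chac1, encoding a glutathione-degrading enzyme, had 4.84, 4.21 and 7.30 CPM in controls and 11.6, 6.44 and 3.98 CPM in ultrasound libraries, and its log2 fold change of 0.43 (SE 0.43) was -0.06 without ultrasound 1. Atf3, a stress-induced repressor that is also an injury and activity gene in neurons, had 1.51, 1.49 and 0.527 CPM in controls and 2.42, 1.94 and 1.52 CPM in ultrasound libraries. Ultrasound 3 lay just above control 1, the log2 fold change was 0.73 (SE 0.52), and with library size alone and in the deposited FPKM the groups overlapped. The control mean of Atf3, 0.489 FPKM, was below the filter, so it was tested because of its ultrasound values. Trib3, encoding a pseudokinase induced by ATF4 and CHOP, had 61, 42 and 17 counts in controls and 31, 16 and 0 in ultrasound libraries, where a count of 0 allows up to 3, and was not tested. The branch median of 0.34 over 5 tested members ran from -0.06 without ultrasound 1 to 0.65 without ultrasound 3. It was 0.11 with the filter at a mean of 1 FPKM, which dropped Atf3.

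By library, ultrasound 1 was the highest of the 6 for 13 of the 33 tested members and ultrasound 2 for 9, against 16.1% and 17.0% of all genes. Ultrasound 3 was highest for 5 and each control for 2. Control 3 was lowest for 9 members, control 1 for 8 and ultrasound 3 for 7, against 22.1%, 13.9% and 16.0% of all genes. Ultrasound 2 was lowest for 4, ultrasound 1 for 3 and control 2 for 2. Across the 16 chaperones and folding enzymes, the median deviation from the mean of each gene on the log2 scale was 0.12, 0.15 and 0.08 in ultrasound libraries 1 to 3, against -0.16, 0.02 and -0.16 in the controls. Control 2 lay nearest to the ultrasound libraries.

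Lists of other genes of these pathways were chosen for role, with earlier results of these data known. Their medians were closer to that of all genes than the median of the chaperones above. In edgeR, DESeq2 and limma alike, 0 genes of these 5 lists had an adjusted p under 0.05. Of 28 further tested ER folding genes 15 were higher. Their median log2 fold change was 0.0040, and 0 had an unadjusted p under 0.05 in edgeR (4.77% of all genes). The smallest p in that list belonged to Dnajc1, encoding a BiP co-chaperone (0.43, SE 0.25), and Uggt2, encoding a glucosyltransferase that resembles the folding sensor UGGT1 (-0.35, SE 0.20). Among 29 further translocation, signal peptidase and oligosaccharyltransferase genes 22 were higher, where 48.8% of all genes were. The median of this list was 0.08, and 0 had an unadjusted p under 0.05. Sec61g (0.46, SE 0.23) and Sec61a2 (0.40, SE 0.22) had the smallest p. Another 15 sensor and eIF2 alpha genes had a median of 0.014 and 0 with an unadjusted p under 0.05. Traf2, encoding an adaptor that binds active IRE1, had -0.47 (SE 0.21), and Eif2ak4, encoding the amino acid sensor kinase GCN2, -0.37 (SE 0.20).

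Of 25 further degradation genes 12 were higher, and their log2 fold changes had a median of -0.013. In edgeR 1 of them had an unadjusted p under 0.05, against 4.77% of all genes. Edem3, a relative of Edem1, had the smallest p of all these lists. It stood at 25.8, 37.1 and 32.4 CPM in controls and at 49.7, 53.4 and 48.4 CPM in ultrasound libraries, with a wide gap between the groups. Of all genes tested 5.69% separated upward. Its log2 fold change of 0.67 (SE 0.17) had an edgeR adjusted p of 0.973. Rnf139, encoding another ubiquitin ligase of the ER, had 0.30 (SE 0.15). Among 24 further ATF4 targets 16 were higher, with a median of 0.040, and 2 had an unadjusted p under 0.05 in edgeR (4.77% of all genes). These were Slc7a5, encoding an amino acid transporter (0.37, SE 0.14), and Mthfd2, encoding a mitochondrial folate enzyme (0.83, SE 0.35).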

How the data were processed

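Per the file headers, each library has 1 column of raw counts and 1 of FPKM, both deposited by the authors. Tools named in the submitters' processing notes are StringTie 1.3.4d, HISAT2 2.0.4, cutadapt 1.9, edgeR and DESeq2, with the build mm10 and no roles. How reads were counted, strand and shared reads included, was not stated. Libraries were made from oligo(dT)-selected RNA with dUTP in the second strand, per the labels' protocols. The table names no build, and 1 of the 34 members had the same start and end in GENCODE M21 (GRCm38), so its coordinates are given as listed and promoters on GRCm38.p6 separately. Columns that match no library analysed here, 12 in number, were left out, and protein sequences were not analysed here.

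Counts of genes with a mean of at least 0.5 FPKM (15740) were fitted with edgeR 4.0.16 (R 4.3.3; TMM, robust quasi-likelihood, no covariate), with Benjamini-Hochberg adjustment over all of them and a threshold of 0.05. The SE is the size of the log2 fold change divided by the square root of F. DESeq2 1.42.0 and limma 3.58.1 were alternatives. Counting error alone is small at these depths, but counts of PCR-amplified reads are not independent molecules. No pair of libraries was identical or agreed within sampling noise.

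The members, branches and lists were chosen with earlier results of these data known. Per-library values were given for members with an unadjusted p under 0.05, for the 3 of each branch with the smallest p, for the most abundant and for the untested, and from each further list the 2 genes with the smallest p were named. Per-library values of the remaining members were added after they were seen, among them those of Edem1. The deposited FPKM was added as a scale for the count of groups that do not overlap after seeing the data.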

Additional observations from a re-analysis of the deposited data

How the results depend on the processing

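Under the 17 alternatives 0 members passed the threshold. The number of all genes past the threshold was 29 in DESeq2, 2 with no filter, 0 in each of the 3 limma fits, 8 without both control 3 and ultrasound 2, and 1 to 4 with single libraries left out, the 4 without control 2 and again without control 3. Members with an unadjusted p under 0.05 numbered 1 with library size only (4.62% of all genes), 1 without both control 3 and ultrasound 2 (4.78%), and 1 to 4 with single libraries left out (3.72% to 5.17%), with 1 without control 3 or without ultrasound 2. The median log2 fold change over all members was 0.16 with library size only and in limma on log2(FPKM + 1), 0.15 without both control 3 and ultrasound 2, and 0.12 to 0.25 with single libraries left out. With single libraries left out, the degradation median ran from -0.011 to 0.23 and the ATF4/CHOP median from -0.064 to 0.65. Members with every ultrasound library above every control numbered 3 with library size only (3.32% of all genes) and 4 in the deposited FPKM (3.70%), against 9 (5.69%). The 9 include Atf3, which was tested because of its ultrasound values. Of the chaperones the counts were 3 and 4, against 7. Library size only moved the median of all genes to -0.060. The cause of these differences was not tested.

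Of 560 values of single members under an alternative, 36 had the opposite sign, none of them past the threshold. Dnajb9 was 0.0062 and Dnajc3 0.0039 in DESeq2, and they were 0.010 and 0.0079 without the 18S gene. Syvn1 was -0.022 with upper quartile scaling, -0.042 with library size only, -0.0031 with no filter and -0.033, -0.035 and -0.031 in the limma fits. Without both control 3 and ultrasound 2, Creld2 was -0.11, Herpud1 -0.032, Edem1 -0.61 and Sec61b -0.032. With single libraries left out, the ranges were -0.026 to 0.037 for Dnajb9, -0.057 to 0.038 for Dnajc3, -0.036 to 0.25 for Creld2, -0.12 to 0.11 for Derl1, -0.06 to 0.080 for Syvn1, -0.23 to 0.54 for Edem1, -0.064 to 0.73 for Chac1, -0.066 to 0.40 for Sec61b, -0.013 to 0.20 for Ero1b, -0.020 to 0.11 for Derl2 and -0.31 to 0.076 for Ssr1.

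Same-numbered libraries had correlations of their deviations of -0.06, -0.03 and 0.08, and the other pairings ran from -0.18 to 0.22. With so few libraries, these values cannot settle whether the replicate numbers pair the libraries. With the replicate number as a block, 0 members passed, 25 of 33 were higher and 4 had an unadjusted p under 0.05 (4.03% of all genes). Depth limits Atf3 and Trib3, with 20 to 108 and 0 to 61 counts per library.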
